A study of Mus musculus with 163 samples.

Results

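The cells described here are the high-score cells of each of 4 groups of mouse cochlear hair cells: those whose immediate early score lay above the median of their own group. The score of a cell was the mean of log2(CPM + 1) over Fos, Fosb, Egr1, Junb, Ier2 and Dusp1, where CPM is a gene's count per 1e6 counts of the cell. Of 163 cells, 81 were high-score cells, and the other 82 lay at or below their group's median and are called low-score cells. The 6 genes chose the cells, so their own values are a description, and the results are those of all other genes.

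Immediate early genes are transcribed within minutes of a stimulus by factors already present in the cell, among them CREB, which binds the cyclic AMP response element (CRE), and serum response factor, which binds the CArG box. Fos, Fosb and Junb are subunits of the AP-1 transcription factor, Egr1 is a zinc finger transcription factor, Ier2 is a small nuclear protein, and Dusp1 is a phosphatase that switches off MAP kinases. Others of the same programme end it again, such as Zfp36 and Btg2, which promote the decay of mRNA. Sensory hair cells are the mechanoreceptors of the inner ear. Inner hair cells (IHCs) pass sound signals to the auditory nerve and outer hair cells (OHCs) amplify sound. Enzymatic dissociation is known to induce immediate early genes in many tissues, and every cell here was dissociated.

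All cells came from cochleae at postnatal day 7 and were picked by hand for red fluorescence after digestion with papain, DNase, a protease and dispase. The 43 control OHCs and 38 control IHCs came from Atoh1P2A-Tdtomato/+ mice, in which hair cells carry the fluorescent protein from the Atoh1 locus. The 56 experimental OHCs and 26 experimental IHCs carried Atoh1P2A-Cre, Atoh1P2A-Tdtomato and Rbm24flox/flox, so that Cre, made from the Atoh1 locus, removes the RNA-binding protein gene Rbm24 in cells that express Atoh1. Cre, the second modified Atoh1 allele and the loss of Rbm24 therefore differ between control and experimental cells together. The labels name no animal and no picking session, so each group is 1 sample, no comparison has a test over animals, and all intervals below cover counting error only. How a picked cell was called an IHC or an OHC is not stated, and the protocol also uses the term iOHC, which it does not spell out.

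The promoters of 6 response genes are printed with the matches to 3 motifs. None of the motifs was in all 6, and the 6 include every gene looked up that held the 8-base CRE or the CArG box. Each window runs from 250 bases before to 50 bases after the annotated start, on the strand of the gene and in build GRCm38.p6, from RefSeq. Capitals mark the 8-base CRE TGACGTCA, its 5-base core TGACG (which the 8-base form also holds) or the CArG box of serum response factor, each searched on both strands. Fos, Junb and Dusp1 belong to the score, and Zfp36, Btg2 and Dusp8 are feedback genes outside it.

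Fos (chr12:85473640-85473939, plus strand): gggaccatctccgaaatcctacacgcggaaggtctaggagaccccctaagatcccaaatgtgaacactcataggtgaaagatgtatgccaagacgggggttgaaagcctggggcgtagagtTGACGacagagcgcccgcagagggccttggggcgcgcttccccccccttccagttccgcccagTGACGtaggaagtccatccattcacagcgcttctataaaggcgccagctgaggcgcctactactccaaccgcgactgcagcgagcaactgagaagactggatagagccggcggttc
Junb (chr8:84978699-84978998, minus strand): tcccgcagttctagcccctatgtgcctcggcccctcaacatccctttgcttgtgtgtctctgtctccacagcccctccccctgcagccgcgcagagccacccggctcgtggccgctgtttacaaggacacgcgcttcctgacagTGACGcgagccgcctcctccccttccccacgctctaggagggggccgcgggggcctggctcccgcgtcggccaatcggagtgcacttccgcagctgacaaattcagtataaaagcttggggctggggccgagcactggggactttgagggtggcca
Dusp1 (chr17:26508423-26508722, minus strand): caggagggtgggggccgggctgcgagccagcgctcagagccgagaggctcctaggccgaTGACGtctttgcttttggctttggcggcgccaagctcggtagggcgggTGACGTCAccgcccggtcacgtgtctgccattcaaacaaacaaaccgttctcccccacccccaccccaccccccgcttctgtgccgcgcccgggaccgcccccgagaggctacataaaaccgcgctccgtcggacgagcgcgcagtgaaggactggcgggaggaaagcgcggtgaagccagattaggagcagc
Zfp36 (chr7:28379179-28379478, minus strand): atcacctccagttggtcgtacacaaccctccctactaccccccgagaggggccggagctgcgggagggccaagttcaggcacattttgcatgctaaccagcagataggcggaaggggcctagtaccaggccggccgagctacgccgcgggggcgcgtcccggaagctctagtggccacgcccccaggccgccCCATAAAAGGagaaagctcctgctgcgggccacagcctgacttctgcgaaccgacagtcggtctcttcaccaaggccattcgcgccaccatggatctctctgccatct
Btg2 (chr1:134079106-134079405, minus strand): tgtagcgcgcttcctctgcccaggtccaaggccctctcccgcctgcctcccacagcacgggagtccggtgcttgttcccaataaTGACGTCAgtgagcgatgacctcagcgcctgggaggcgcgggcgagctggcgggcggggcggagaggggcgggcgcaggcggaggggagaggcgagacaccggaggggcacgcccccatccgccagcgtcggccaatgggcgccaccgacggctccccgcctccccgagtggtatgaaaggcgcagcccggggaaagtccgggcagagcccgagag
Dusp8 (chr7:142095235-142095534, minus strand): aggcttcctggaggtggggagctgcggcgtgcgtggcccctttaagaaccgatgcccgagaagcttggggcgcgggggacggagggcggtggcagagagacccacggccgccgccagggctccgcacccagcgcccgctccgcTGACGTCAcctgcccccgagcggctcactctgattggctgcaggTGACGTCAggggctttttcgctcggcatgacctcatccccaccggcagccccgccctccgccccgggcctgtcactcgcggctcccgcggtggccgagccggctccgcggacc

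Dusp1 and Btg2 held 1 CRE and Dusp8 held 2, Fos held 2 cores and Junb 1, and Zfp36 held a CArG box. Dusp1 held a further core. Of 32851 such mouse windows, 1.79% held the CRE, 20.8% its core and 1.63% a CArG box. Of 22 response and shared genes that were looked up, 21 had a window. Among these, the CRE was in 3, the core in 12 and the CArG box in 1. No match was found in the windows of Jun, Jund, Sertad1, Bbs9, Rem2, Arhgef1, Atxn7 and Rnf121, which says only that these letters are not in this window. Ier2 had no window. Egr1 of the score, Nfkbia and further shared genes named below were not looked up.

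Total counts per cell, in units of 1e6, ran from 5.47 to 18.1. Rbm24 was at 315 and 431 CPM in the summed control OHCs and IHCs and at 0.21 and 1.5 CPM in the experimental ones. Pou4f3, a transcription factor of all hair cells, was at 10 CPM or more in 163 of 163 cells. Among control OHCs, 42 of 43 held at least 10 CPM of the OHC calcium buffer Ocm and 41 of 43 as much of Slc26a5, the OHC motor protein prestin. In experimental OHCs, only 15 and 23 of 56 cells did, so those markers do not identify these cells. Among control OHCs, 1 high-score cell went against its label, with 0.156 CPM of Slc26a5, and 1 low-score cell with OHC markers held both Xist and Y-linked transcripts.

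The score differed widely between cells of a group. It ran from 0.019 to 7.1 in control OHCs (median 1.63), from 0.08 to 5.59 in experimental OHCs (median 2.36), from 0.029 to 6.72 in control IHCs (median 3.8) and from 1.07 to 8.67 in experimental IHCs (median 4.05). The cells next to the median were close on both sides: 1.63 and 1.77 in control OHCs, 2.35 and 2.37 in experimental OHCs, 3.78 and 3.82 in control IHCs, and 3.98 and 4.12 in experimental IHCs. The largest gap between neighbouring scores was 1.93 in control OHCs, where it set apart the 3 highest cells, 1.14 in experimental IHCs, 0.585 in experimental OHCs and 0.479 in control IHCs. The split gave 21 high-score and 22 low-score control OHCs, 28 and 28 experimental OHCs, 19 and 19 control IHCs, and 13 and 13 experimental IHCs.

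**Figure D1:**
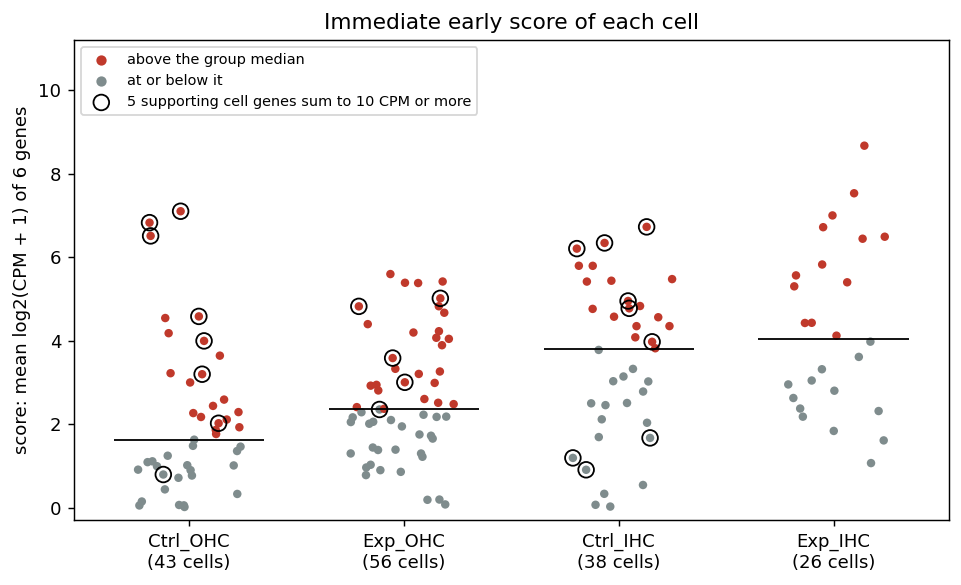
Immediate early score of each cell (y axis, mean log2(CPM + 1) of the 6 genes) in the 4 groups (x axis). Red points are high-score cells, grey points low-score cells, the bar is the group median and a ring marks a cell in which Tectb, Otog, Gjb2, Gjb6 and Slc1a3 sum to 10 CPM or more; the 3 highest cells of each control group carry a ring.

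The 6 genes did not rise together in every high-score cell. Over the 15 pairs of genes, the median Spearman correlation across cells was 0.27 in control OHCs (n = 43), 0.17 in experimental OHCs (n = 56), 0.25 in control IHCs (n = 38) and 0.46 in experimental IHCs (n = 26), each over cells that share a library procedure and a depth scale. Fos was at 10 CPM or more in 7 of 21 high-score control OHCs and in 0 of 22 low-score ones. In control IHCs, 19 of 19 high-score and 9 of 19 low-score cells held as much. Ier2 was spread more widely in experimental OHCs, where 27 of 28 high-score and 24 of 28 low-score cells held at least 10 CPM, than in control OHCs, where 21 of 21 and 3 of 22 did. Fosb reached 10 CPM in 13 of 19 high-score control IHCs but in 4 of 13 high-score experimental IHCs, 3 of 28 experimental OHCs and 3 of 21 control OHCs.

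All other genes were compared between the high-score and the low-score cells of each group as the ratio of summed CPM, for genes whose mean over the 2 sets of cells was at least 10 CPM. A gene is called here when the sets differ by 2-fold or more. In control OHCs, 541 of 8926 genes (6.06%) were called higher in high-score cells and 370 (4.15%) lower. In experimental OHCs, 356 of 9212 (3.86%) were higher and 354 (3.84%) lower. The control IHCs had 524 of 8785 (5.96%) higher and 330 (3.76%) lower, and the experimental IHCs, with the fewest cells, 748 of 9195 (8.13%) higher and 857 (9.32%) lower.

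Almost none of this was shared. Of 7593 genes measured in all 4 groups, 0 were called higher in all 4 (0%) and 0 called lower in all 4 (0%), by the ratio of sums and by the difference of mean log2(CPM + 1), while 2 genes (0.0263%) passed 2-fold in all 4 groups with mixed directions. Leaving out the highest cell of each set for each gene gave 1 gene higher in all 4, the histone gene Hist1h2be. At 1.5-fold, 6 genes (0.079%) were higher in all 4 groups and 1 (0.0132%) lower, while 74 (0.975%) passed it in all 4 groups in any pattern of directions. By direction alone, whatever the size, 490 genes (6.45%) were higher and 422 (5.56%) lower in all 4 groups, while each of the 14 mixed patterns of direction held between 416 and 584 genes. Across the 7593 genes, the Spearman correlation of the log2 ratios between groups lay between -0.055 and 0.038 for the 6 pairs of groups, with genes as points, which are not independent replicates.

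**Figure D2:**
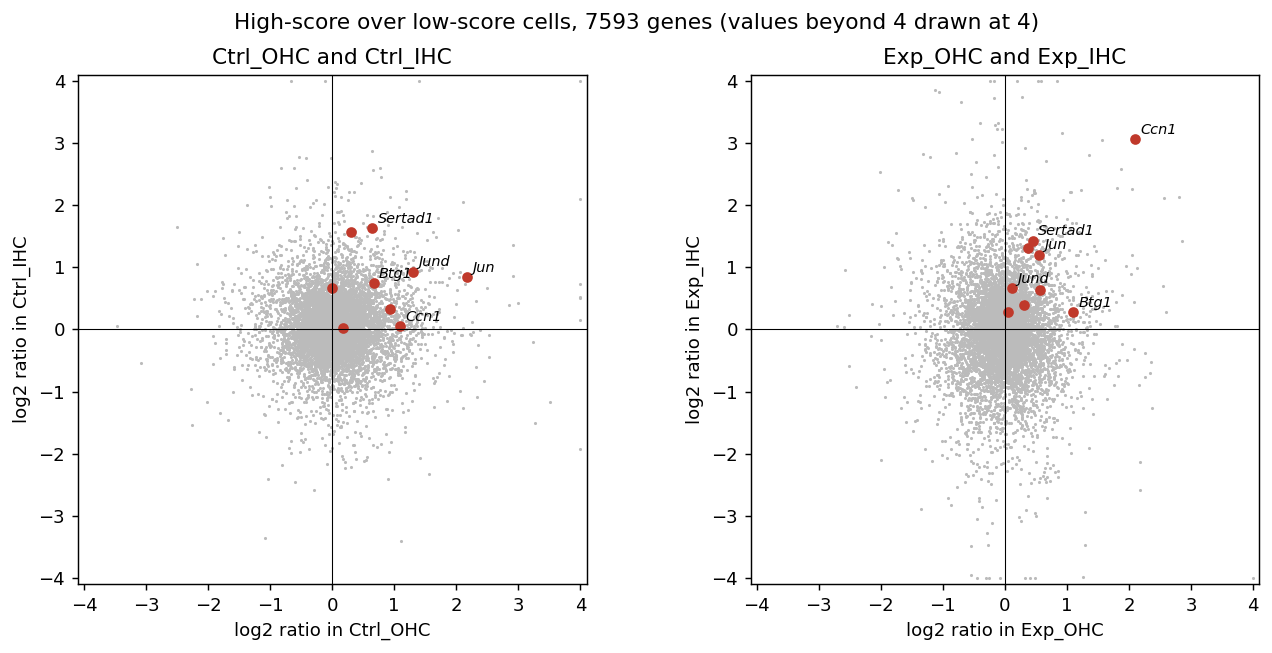
Log2 ratio of summed CPM, high-score over low-score cells, for the 7593 genes measured in all 4 groups, in control OHCs (x) against control IHCs (y) on the left and in experimental OHCs against experimental IHCs on the right. Grey points are genes, red points the response genes outside the score that were higher in all 4 groups; the cloud has no slope, and the place of the red points above 0 on both axes follows from their choice. Values beyond 4 are drawn at 4.

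The response genes outside the score stood in another proportion. The 5 response lists held other AP-1 and bZIP genes, other immediate early transcription factors, and feedback and mRNA decay genes. They also held cytoskeletal targets of serum response factor, and late activity genes. Sox9 was placed among the other transcription factors and is also on the supporting cell list described below. The lists were chosen with earlier results of these data known, and the count is by direction of the ratio of sums alone, whatever the size. Of their 31 members measured in all 4 groups, 9 were higher in high-score cells of all 4 groups (29%, beside 6.45% of all genes) and 0 were lower (beside 5.56%). The 9 were Jun, Jund and Mafg of 6 AP-1 and bZIP members, Btg1, Btg2, Dusp8 and Nfkbia of 9 feedback members, Ccn1 of 8 cytoskeletal members and Sertad1 of 5 late activity members, with 0 of 3 other transcription factors. Among the 9, Mafg and Ccn1 had ratios close to even in control IHCs. With the score of Fos, Egr1 and Junb, the sign turned for Dusp8 in control IHCs and for Sertad1 in experimental IHCs. With a filter of 1 CPM, 12 of 58 members were higher in all 4 groups (20.7%, beside 6.58% of 11646 genes) and 0 lower (beside 5.51%), Zfp36 among the 12. Of 243 members of the 26 other lists, 8 were higher in all 4 groups (3.29%) and 12 lower (4.94%).

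Jun is the main partner of Fos in AP-1. In control OHCs it was at 0.134, 51.4 and 1163 CPM (lowest, median and highest) in low-score cells and at 0, 371 and 3331 CPM in high-score cells. The experimental OHCs had 37.7, 421 and 1504 CPM in low-score and 9.87, 363 and 3217 CPM in high-score cells. Control IHCs had 0.242, 243 and 1267 CPM and 113, 571 and 824 CPM in low-score and high-score cells, and experimental IHCs 63.9, 397 and 1133 CPM and 201, 1177 and 1792 CPM. The 2 sets of cells overlapped in all 4 groups, and in experimental OHCs the median was lower in the high-score cells. The log2 ratio of summed CPM was 2.17 (95% interval 2.15 to 2.19) in control OHCs, 0.56 (0.55 to 0.57) in experimental OHCs, 0.84 (0.82 to 0.85) in control IHCs and 1.20 (1.19 to 1.21) in experimental IHCs. Across cells, the Spearman correlation of Jun with the score was 0.54, 0.14, 0.49 and 0.61 in the same order. Jun overlaps its antisense gene Junos, and whether the counting used strand is not stated.

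Jund, an AP-1 subunit that is present at rest in most cells, was also higher in all 4 groups. Its summed level was 121 CPM in high-score and 48.9 CPM in low-score control OHCs, a log2 ratio of 1.31, and 162 against 85.1 CPM in control IHCs (0.93). Experimental IHCs had 211 against 133 CPM (0.67) and experimental OHCs 117 against 108 CPM, a log2 ratio of only 0.12. Mafg, a small Maf protein, had log2 ratios of 0.17, 0.31, 0.02 and 0.39 in control OHCs, experimental OHCs, control IHCs and experimental IHCs, the third with an interval of -0.03 to 0.06. Mafk, a close relative of Mafg, was called higher in both IHC groups (2.02 and 1.09) and had -0.13 and -0.63 in control and experimental OHCs. Creb1, which encodes CREB itself, had 0.23, -1.23, -0.46 and -1.21, and was called lower in both experimental groups.

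Atf3, a stress-induced bZIP repressor, was rare, with at least 10 CPM in 1, 4, 1 and 2 high-score cells of the 4 groups and in 0, 1, 0 and 1 low-score cells. Its single positive high-score cell in control OHCs held 229 CPM and that in control IHCs 25.6 CPM. Both cells also carried transcripts of supporting cells.

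Btg2, an antiproliferative protein that recruits the CCR4-NOT deadenylase to mRNA, was higher in all 4 groups. In control OHCs it had 0.134, 92.6 and 502 CPM (lowest, median, highest) in low-score and 65.4, 212 and 559 CPM in high-score cells. In experimental OHCs the values were 33.9, 322 and 1089 CPM and 41.2, 580.4 and 1385 CPM. Control IHCs had 109.6, 231 and 705 CPM and 162, 356 and 754 CPM, and experimental IHCs 172, 409.6 and 985 CPM and 130.0, 576 and 1317 CPM. The sets overlapped in each group, and the median was higher in the high-score cells of all 4. Log2 ratios were 0.93, 0.57, 0.33 and 0.64, so no group reached 2-fold. In control OHCs, 16 of 22 low-score cells and 21 of 21 high-score cells held 10 CPM or more.

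Btg1, a paralogue of Btg2, had summed levels of 54.2 against 25.4 CPM in experimental OHCs, a log2 ratio of 1.10, and ratios of 0.67, 0.74 and 0.28 in control OHCs, control IHCs and experimental IHCs. At least 10 CPM of Btg1 was seen in 25 of 28 high-score against 13 of 28 low-score experimental OHCs, and in 12 of 13 against 6 of 13 experimental IHCs. Dusp8, a phosphatase of JNK and p38, had 0.30, 0.38, 1.57 and 1.32 in control OHCs, experimental OHCs, control IHCs and experimental IHCs, and turned to -0.29 in control IHCs when the score used Fos, Egr1 and Junb alone. Zfp36, which encodes the mRNA decay factor tristetraprolin, fell below the filter in both control groups (mean of the 2 sets under 10 CPM), with 5 of 21 high-score and 1 of 22 low-score positive cells in control OHCs and 5 and 1 of 19 in control IHCs. Its log2 ratios were 3.41, 0.89, 2.89 and 2.33 in the same order of groups. Gadd45b, a stress sensor upstream of MAP kinases, was called higher in 3 groups (5.20, 2.10 and 1.44 in control OHCs, control IHCs and experimental IHCs) and had -0.49 in experimental OHCs. The control OHC value rested on 1 high-score cell with 388 CPM.

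**Figure D3:**
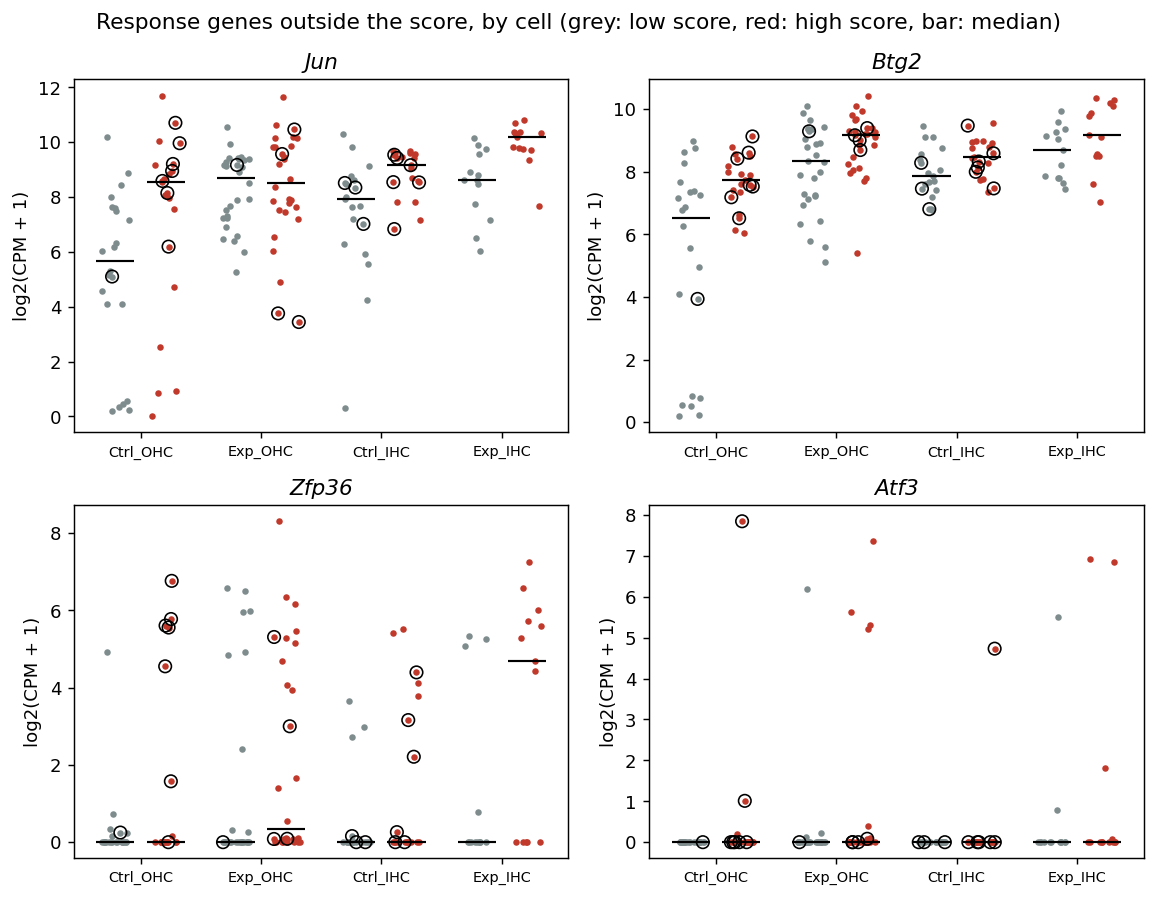
Jun, Btg2, Zfp36 and Atf3 in each cell (y axis, log2(CPM + 1)) by group (x axis), low-score cells in grey and high-score cells in red, with the median as a bar and a ring around cells carrying supporting cell transcripts. Jun and Btg2 are spread over most cells, while Zfp36 and Atf3 are at or near 0 in most and high in few.

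Ccn1, a secreted matricellular protein and a target of serum response factor and YAP, was higher in all 4 groups with log2 ratios of 1.10, 2.10, 0.06 and 3.07 in control OHCs, experimental OHCs, control IHCs and experimental IHCs, the last turning to -0.31 within cells with Xist. In experimental IHCs its lowest, median and highest values were 0, 0.0735 and 171 CPM in low-score and 0, 55.7 and 1869 CPM in high-score cells. Its mean log2(CPM + 1) was lower in high-score control IHCs, by a difference of -0.46. Sertad1, a transcriptional coregulator, had 0.65, 0.45, 1.63 and 1.43 in the same order, with 10 CPM or more in 8 of 19 high-score and 3 of 19 low-score control IHCs, but in 2 of 13 cells of both sets in experimental IHCs, where the score of Fos, Egr1 and Junb gave -0.91. Nr4a1, an orphan nuclear receptor that many immediate early panels include, fell below the filter in all 4 groups. It had 5 of 21 and 3 of 28 positive high-score cells in control and experimental OHCs against 0 low-score cells in each, but 3 and 2 of 19 in control IHCs and 1 of 13 in both sets of experimental IHCs. Without the cells carrying supporting cell transcripts, its summed level in high-score control OHCs went from 10.8 to 2.72 CPM. Klf9, a zinc finger factor known to respond to glucocorticoids, was called in experimental IHCs alone (1.87) and had 0.06, 0.21 and -0.08 in control OHCs, experimental OHCs and control IHCs; the difference between groups was not tested.

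The highest scores of both control groups lay in cells that also carried transcripts of supporting cells, the non-sensory neighbours of hair cells. Tectb, which encodes the tectorial membrane protein beta-tectorin and is made by supporting cells, was at 120.3 CPM in the summed high-score and 0.327 CPM in the low-score control OHCs. In control IHCs Tectb was at 149.9 and 5.9 CPM. Otog was at 40.6 and 0.0195 CPM in control OHCs but at 1.88 and 10.7 CPM in control IHCs, where 1 cell held 99.7% of the low-score counts. To mark cells, 5 genes of the supporting cell list were summed, a choice made after the data were seen. Cells in which Tectb, Otog (otogelin), Gjb2 and Gjb6 (connexins) and Slc1a3 (a glutamate transporter) summed to 10 CPM or more numbered 7 of 21 high-score and 1 of 22 low-score control OHCs, 4 of 28 and 1 of 28 experimental OHCs, 6 of 19 and 3 of 19 control IHCs, and 0 of 13 in both sets of experimental IHCs. These 22 cells included the 3 highest scores of control OHCs (7.1, 6.82 and 6.51) and the 3 highest of control IHCs (6.72, 6.34 and 6.2). The median score was 4.29 in the 8 such control OHCs and 1.36 in the other 35, and 4.77 in the 9 such control IHCs and 3.32 in the other 29. The 5 such experimental OHCs had a median of 3.58 and the other 51 one of 2.23. The part of these transcripts in the score was not tested.

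The whole list of 17 supporting cell genes had 4, 2, 5 and 2 members at 10 CPM or more in control OHCs, experimental OHCs, control IHCs and experimental IHCs, and 2, 3, 2 and 4 members at 0 in all cells. Its summed level per cell reached 1769 CPM in high-score and 507 CPM in low-score control OHCs, and 1937 and 1082 CPM in control IHCs. In experimental IHCs the sums reached 168 and 167 CPM. The median sum moved both ways, from 196 CPM in low-score to 259 CPM in high-score control OHCs and from 109 to 42 CPM in control IHCs. The transcription factor Sox9 was at 10 CPM or more in 3 of 21, 4 of 28 and 4 of 19 high-score cells of control OHCs, experimental OHCs and control IHCs, against 0, 0 and 1 low-score cells, but in 6 and 8 of 13 experimental IHCs. With a filter of 1 CPM, 4 members of the list were measured in all 4 groups. Of these, Cdkn1b was lower in all 4 groups (beside 5.51% of all genes) and 0 were higher (beside 6.58%).

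Without these 22 cells, the response genes moved in several places. Jun kept log2 ratios of 2.08, 0.58, 0.89 and 1.20 in control OHCs, experimental OHCs, control IHCs and experimental IHCs, and Btg2 0.76, 0.60, 0.30 and 0.64. Zfp36 in control OHCs turned from 3.41 to -7.29, since all 5 of its positive high-score cells were among those left out. Atf3 was then at 0 or near 0 in both control groups. Mafg turned to -0.07 in control IHCs and Creb1 to -0.06 in control OHCs. Of 30 response list members measured in all 4 groups, 8 were then higher in all 4 (26.7%, beside 5.87% of all genes) and 2 lower, Creb1 and Dusp14 (6.67%, beside 5.86%). Over all genes, Rem2 and Arhgef1 passed 2-fold upward in all 4 groups without these cells, and 0 genes downward.

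**Figure D4:**
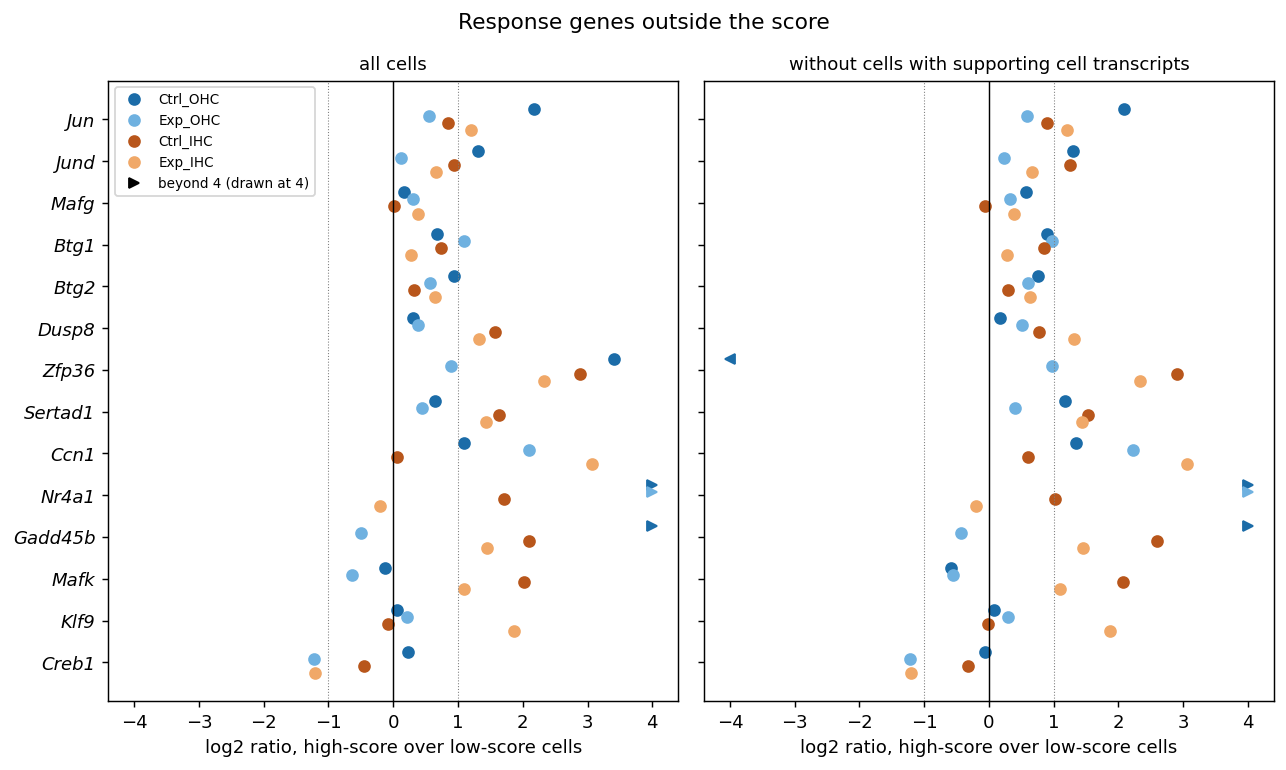
Log2 ratio of summed CPM, high-score over low-score cells (x axis), of 14 response genes outside the score (y axis) in the 4 groups (colours), with all cells on the left and without the 22 cells carrying supporting cell transcripts on the right. Arrowheads stand for values beyond 4 and dotted lines for 2-fold. Jun, Jund, Btg1, Btg2, Dusp8, Sertad1 and Ccn1 lie right of 0 in both panels, and Zfp36 in control OHCs changes side. On the right, Dusp8 in control IHCs is below the 10 CPM filter.

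Over all genes, 181 (2.38% of 7593) were higher and 167 (2.2%) lower in all 4 groups by all of 3 measures: the ratio of sums, the same without the highest cell of each set, and the difference of mean log2(CPM + 1). Ranked by their smallest ratio, the first 15 that were higher were Bbs9, Arhgef1, Rem2, Atxn7, Rnf121, Hist1h2ac, Orc6, Jun, Idh1, Gabpa, Mdm1, Plcg1, Atp6v0a2, Ap2b1 and Reep6. Only Jun among them is on a response list. For all 15, the values of high-score and low-score cells overlapped in every group.

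Bbs9, a subunit of the BBSome that carries cargo to cilia, came first by this rank, with 0.97, 1.01, 0.95 and 0.84 in control OHCs, experimental OHCs, control IHCs and experimental IHCs. It was at 10 CPM or more in 9 of 21 high-score and 4 of 22 low-score control OHCs and in 8 of 13 and 5 of 13 experimental IHCs. Without the cells carrying supporting cell transcripts, Bbs9 was at 0.56 in control OHCs and 0.39 in control IHCs, so it no longer came before Rem2 and Arhgef1. Bbs9 (chr9:22475715-22888280 in GRCm38) overlaps 4 other annotated genes, Gm2976, Gm16165, Gm16164 and Gm27639. Rem2 (chr14:54476100-54480431), a small GTPase that inhibits voltage-gated calcium channels and is induced by activity in neurons, had 1.23, 2.04, 0.72 and 2.26. In experimental OHCs, 6 of 28 high-score and 4 of 28 low-score cells reached 10 CPM, with highest values of 430.3 and 79.8 CPM, and the score of Fos, Egr1 and Junb turned that ratio to -1.22. Arhgef1 (chr7:24902912-24926594), a guanine nucleotide exchange factor for RhoA, had 0.74, 0.89, 0.87 and 1.25. However, its Spearman correlation with the score was -0.02 in control OHCs and -0.22 in experimental IHCs. Within the experimental IHCs with Y-linked transcripts, only 3 high-score and 4 low-score cells, its ratio was -3.02.

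Idh1, the cytosolic NADP-dependent isocitrate dehydrogenase, had summed levels of 59 against 33.6, 87.8 against 47.5, 111 against 75.7 and 194 against 129 CPM in high-score against low-score cells of the 4 groups. Ap2b1, a subunit of the AP-2 clathrin adaptor, had log2 ratios of 0.50, 0.69, 0.95 and 0.73. Reep6, an endoplasmic reticulum shaping protein, was at 454 against 312 CPM in control IHCs, where 19 of 19 cells of both sets held at least 10 CPM, and at 79.6 CPM or less in each set of the other groups. Hist1h2ac, a histone H2A gene, had 1.31, 1.39, 0.58 and 1.04, with near-identical copies among which the counting may split reads. Atxn7 of the SAGA complex, Gabpa (an ETS factor), Orc6 (origin recognition), Plcg1 (a phospholipase C), Ap2b1, Mdm1, Rnf121 and Atp6v0a2 had smallest ratios between 0.50 and 0.65. Apart from Rnf121, these overlap at least 1 other annotated gene, among them Thoc7 for Atxn7, Atp5j for Gabpa, Vps35 for Orc6 and Zhx3 for Plcg1.

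The 10 genes that led the shared lower set were Nhlrc1, Ccdc90b, Mpv17l, Synj1, Casp8ap2, Ghr, Nit1, Usp28, Rdh11 and Baz1b. Nhlrc1, the E3 ubiquitin ligase malin, had log2 ratios of -0.88, -1.21, -1.50 and -0.79 in control OHCs, experimental OHCs, control IHCs and experimental IHCs. Within cells with Xist, Nhlrc1 turned to 1.68 in control IHCs, where these were 4 high-score and 8 low-score cells. Ghr, the growth hormone receptor, had its largest ratio in control OHCs (-2.27), where 4 of 21 high-score and 13 of 22 low-score cells reached 10 CPM, and -1.09, -0.96 and -0.48 in the others. Synj1, the phosphoinositide phosphatase synaptojanin 1 that uncoats synaptic vesicles, was even across groups at -0.64, -0.55, -0.54 and -0.55, with summed levels of 46.9 to 63.9 CPM in high-score and 66.9 to 93.7 CPM in low-score cells. Ccdc90b, Mpv17l and Baz1b had a log2 ratio of 0.57, 0.55 and 0.45 in size in the group where each was smallest. Ccdc90b overlaps Ankrd42 and Nit1 overlaps Dedd. The values of high-score and low-score cells overlapped for all 10 in every group.

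Lists of other processes mostly changed direction between groups. The list of p53 targets had a median log2 ratio of -0.09, -0.16, -0.17 and -0.30 in control OHCs, experimental OHCs, control IHCs and experimental IHCs, but 1 of 7 members, Trp53inp1, was lower in all 4 groups, where 5.56% of all genes were. The unfolded protein response list was higher in 13 of 13 measured members in control IHCs (median log2 ratio 0.32), led by Herpud1, an endoplasmic reticulum degradation factor (1.16), with Hspa5 (the chaperone BiP) at 0.54. It was higher in 10 of 13 in control OHCs (0.35), 9 of 14 in experimental OHCs (0.07) and 6 of 14 in experimental IHCs (-0.09). The medians over all genes tested lay between -0.02 and 0.03. Of all genes tested, 4696 of 8926 were higher in control OHCs and 4612 of 8785 in control IHCs. Experimental OHCs had 4539 of 9212 higher and experimental IHCs 4464 of 9195. Mitochondrially encoded genes were lower in 12 of 12 measured members in both control OHCs (-0.17) and control IHCs (-0.18), higher in 8 of 12 in experimental OHCs (0.08) and higher in 12 of 12 in experimental IHCs (0.15). The 12 are transcribed as few long precursors and are not independent. All genes of the mitochondrial genome together had median shares of a cell's counts of 5.76% in high-score and 6.39% in low-score control OHCs, 4.49% and 4.21% in experimental OHCs, 6.59% and 8.24% in control IHCs, and 4.96% and 3.86% in experimental IHCs. The heat shock, integrated stress response and inner hair cell lists had 0 of 13, 10 and 4 measured members in the same direction in all 4 groups. The outer hair cell, hair cell identity and calcium lists had 0 of 7, 12 and 12, beside 12.0% of all genes. Without the cells carrying supporting cell transcripts, Sri of the outer hair cell list and Creb1 of the calcium list were lower in all 4 groups. Of 24 cytosolic ribosomal protein genes, 1 was higher (Rpl3, beside 6.45% of all genes) and 1 lower (Rps19, beside 5.56%).

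**Figure D5:**
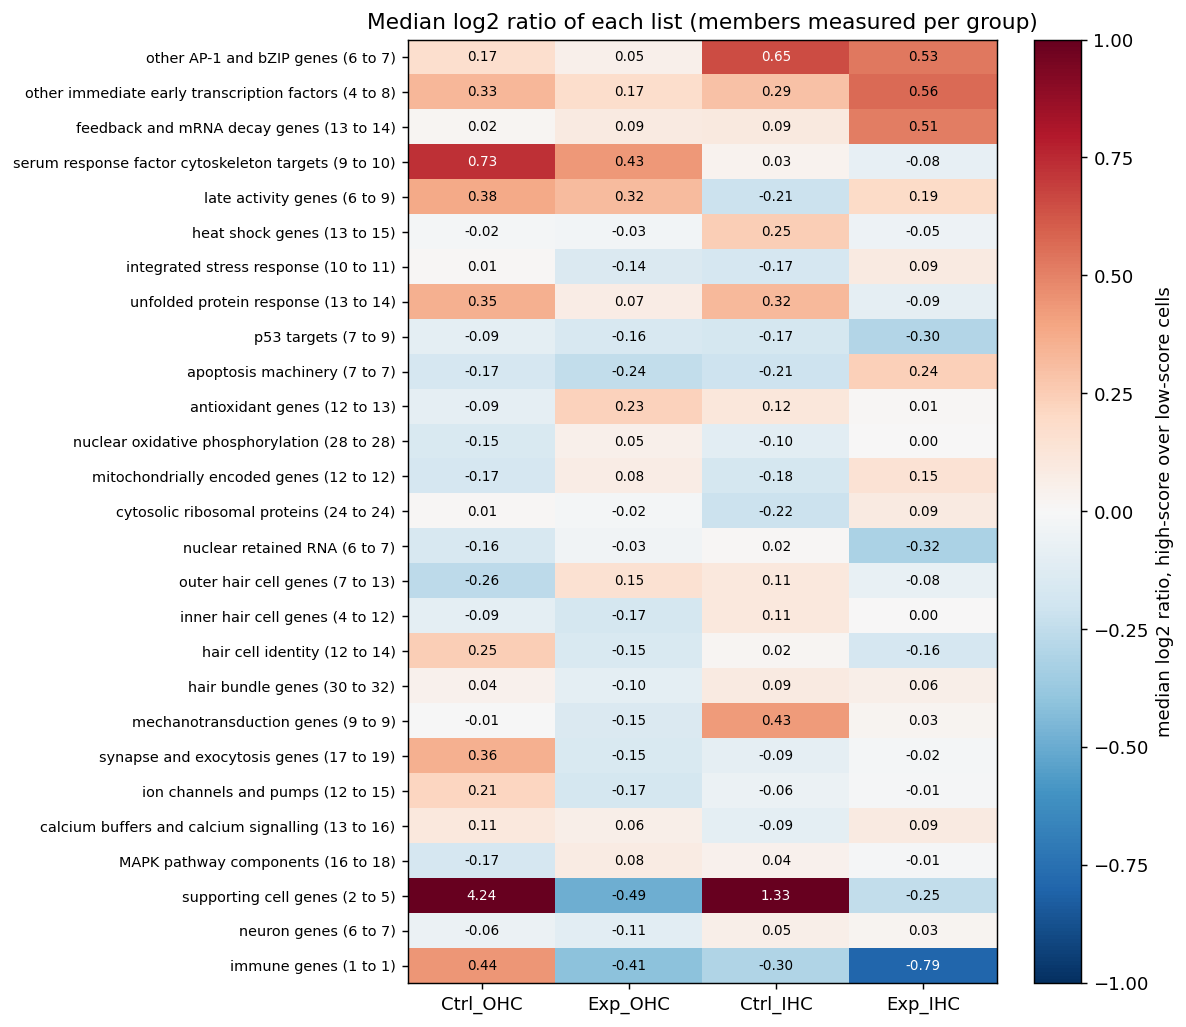
Median log2 ratio of summed CPM, high-score over low-score cells, of the members of each list with a mean of at least 10 CPM, by group (columns), with the lowest and highest number of measured members in parentheses. Colours stop at 1 and -1; the AP-1, other transcription factor and feedback lists are above 0 in all 4 groups, and the mitochondrially encoded list changes sign.

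Few hair cell genes had the same direction in all 4 groups. Clic5, a chloride channel family protein of the stereocilium base, had log2 ratios of 0.76, 0.35, 0.52 and 0.09, and Cdh23, the tip link cadherin, 0.25, 0.17, 0.51 and 0.53 in control OHCs, experimental OHCs, control IHCs and experimental IHCs. Clic5 had a lower mean log2(CPM + 1) in high-score experimental IHCs, by a difference of -0.35. Clic5, Cdh23 and Ush1c were the 3 of 30 measured hair bundle genes that were higher in all 4 groups (10%, beside 6.45% of all genes), and Eps8, an actin regulator of stereocilium tips, was the 1 that was lower (3.33%, beside 5.56%), shares near those of all genes. Among 12 measured genes of ion channels and pumps, none was higher in all 4 groups (beside 6.45% of all genes) and 2 were lower (beside 5.56%): Kcnma1, the BK potassium channel (-1.06, -0.11, -0.48 and -0.77), and Scn8a, a sodium channel, which was at 0.09 in control OHCs without the cells carrying supporting cell transcripts. In control OHCs, 4 of 17 measured synapse genes were called higher, where 6.06% of all genes were: Syt7 at 1.88, Rims2 at 1.32, Rimbp2 at 1.31 and Syt1 at 1.29. Their values in the other groups did not repeat this, with Syt7 at -0.55, -0.75 and -2.11 in experimental OHCs, control IHCs and experimental IHCs. Ocm was at a log2 ratio of -0.85 and Slc26a5 at -0.24 in control OHCs.

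The genes with the largest ratios differed from group to group and rested on few cells. The rule took the 3 in each direction that were largest after the highest cell of each set was left out. In control OHCs they were Otog, Col2a1 (cartilage collagen) and Jade3, higher, and Kcnip3, Fah and Wdr91, lower. Otog was at 10 CPM or more in 4 of 21 high-score and 0 of 22 low-score cells and Col2a1 in 7 and 0, both listed here or known as genes of supporting or cartilage cells, while Kcnip3 (a calcium sensor) was in 0 and 7. In control IHCs they were Akr1b10, Ctsz and Qpct, higher, and Crat, Dhx37 and Gm44667, lower, with Dhx37, an RNA helicase, in 0 of 19 high-score and 11 of 19 low-score cells at a log2 ratio of -5.91. Experimental OHCs had Mtfp1, Slc16a5 and Xlr3b, higher, and Cd248, Zfp874a and Zfp93, lower, each in 8 or fewer of 28 cells of a set. Cd248 had a log2 ratio of 0.75 with all cells, since 1 high-score cell held most of its counts. Experimental IHCs had Blvrb, Sh3rf2 and Tub, higher, each in 6 of 13 high-score cells, and 5330413P13Rik, Man2b1 and Zfp78, lower.

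Median total counts were higher in high-score cells of all 4 groups. Total counts, in units of 1e6, had medians of 9.09 and 8.97 in high-score and low-score control OHCs, 13.9 and 11.7 in experimental OHCs, 9.04 and 8.52 in control IHCs, and 14.8 and 13.6 in experimental IHCs. Across cells, the Spearman correlation of total counts with the score was -0.077, 0.31, 0.015 and 0.10 in the same order of groups. Cells with Y-linked transcripts and no Xist numbered 16 of 21 and 16 of 22, 11 of 28 and 5 of 28, 15 of 19 and 11 of 19, and 3 of 13 and 4 of 13 in the same order. Cells high in the transcript Gm15772, which splits the cells into 2 sets, numbered 9 of 21 and 9 of 22, 17 of 28 and 23 of 28, 7 of 19 and 8 of 19, and 10 of 13 and 9 of 13. The part of depth in the ratios was not tested.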

How the data were processed

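Whole-transcript RNA of 163 single cells was measured with a Smart-Seq kit. The authors deposited raw counts of reads for each gene and cell; the reads carry no molecular identifiers; HISAT2 2.2.1, SAMtools, featureCounts 2.0.1 and build mm10 are named, per the submitters' processing notes. The annotation, strand setting and treatment of multi-mapping reads are not given in the sources used here. Gene names came from GENCODE vM21 (99.5% of 55291 IDs matched).

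The score, gene lists and named genes were chosen with earlier results of these data known. Counts were summed over high-score and over low-score cells of a group and compared as log2 ratios of CPM, with exact conditional 95% intervals for counting error, for genes with a mean of at least 10 CPM. A sum of 0 was set to 3 counts, so ratios against it depend on that floor. Genes were called at 2-fold. Since each group is 1 sample, no p-value was computed. Named genes were the top 15 higher and top 10 lower with 1 sign in all 4 groups by 3 measures, up to 4 per list, and 3 each way per group. Further genes of the fixed lists, and Zfp36, Atf3, Nr4a1, Sox9 and Hist1h2be, were named after their values were seen. Cells were compared under other scalings (edgeR 4.0.16 TMM and median-of-ratios factors), filters, splits and scores. The ratio was also computed on simulated data with counting error only. Those data had no spread between cells, so they do not show how often such spread alone passes 2-fold. Cells were picked by hand and doublets were not called, although 1 control OHC held both Xist and Y-linked transcripts. In 22 cells, the 5 supporting cell genes chosen after the data were seen summed to 10 CPM or more. The other genes of the supporting cell list were not part of that mark. Sox9, for example, was also found in experimental IHCs, none of which was marked. Python 3.11.15, NumPy 2.4.6, SciPy 1.17.1, pandas 2.3.3 and matplotlib 3.10.9 were used.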

Additional observations from a re-analysis of the deposited data

Results flagged for a closer look

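The log2 ratios of 8 genes passed 2-fold in opposite directions in 2 groups, and these differences were not tested. Aldh18a1 differed by 2.67 on the log2 scale, from -1.52 in experimental OHCs to 1.15 in experimental IHCs. Elac2 differed by 3.57 on the log2 scale, from -1.48 in experimental OHCs to 2.09 in experimental IHCs. Gm37834 differed by 2.74 on the log2 scale, from -1.68 in control OHCs to 1.07 in experimental OHCs. Ppp3r1 differed by 2.52 on the log2 scale, from -1.27 in experimental IHCs to 1.25 in experimental OHCs. Slc16a5 differed by 6.36 on the log2 scale, from -2.14 in experimental IHCs to 4.21 in experimental OHCs. Syt7 differed by 3.99 on the log2 scale, from -2.11 in experimental IHCs to 1.88 in control OHCs. Xlr3b differed by 15.4 on the log2 scale, from -10.75 in experimental IHCs to 4.64 in experimental OHCs. Zfp93 differed by 3.38 on the log2 scale, from -2.03 in experimental OHCs to 1.35 in control OHCs (0.26 in control OHCs without the highest cell of each set, under 2-fold). Each group is 1 sample, and the genes were picked out by their values. Aldh18a1 makes a precursor of proline, Elac2 processes tRNA ends, Ppp3r1 is the regulatory subunit of calcineurin, and Syt7 is a calcium sensor of exocytosis.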

How the results depend on the processing

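The counts of genes past 2-fold were 911 in control OHCs, 710 in experimental OHCs, 854 in control IHCs and 1605 in experimental IHCs, with 0 in the same direction in all 4 groups. They stayed within 1.5 times of these with TMM factors, median-of-ratios factors, the score scaled by SD and without the 2 doubted cells. At 1.5-fold, the genes past the fold numbered 2307 in control OHCs, 2118 in experimental OHCs, 2262 in control IHCs and 3373 in experimental IHCs and those past it in the same direction were 6 higher in all 4 groups and 1 lower in all 4 groups. At 3-fold, the genes past the fold numbered 251 in control OHCs, 192 in experimental OHCs, 250 in control IHCs and 631 in experimental IHCs. With a filter of 1 CPM, the genes past the fold numbered 3742 in control OHCs, 3409 in experimental OHCs, 3717 in control IHCs and 4942 in experimental IHCs and those past it in the same direction were 20 higher in all 4 groups and 9 lower in all 4 groups. With a filter of 50 CPM, the genes past the fold numbered 86 in control OHCs, 40 in experimental OHCs, 52 in control IHCs and 210 in experimental IHCs. Without the highest cell of each set, those past it in the same direction were 1 higher in all 4 groups. By the difference of mean log2(CPM + 1), the genes past the fold numbered 1385 in control OHCs, 1094 in experimental OHCs, 1473 in control IHCs and 2527 in experimental IHCs. Between the top and bottom terciles of the score, the genes past the fold numbered 1483 in control OHCs, 1133 in experimental OHCs, 1635 in control IHCs and 2448 in experimental IHCs and those past it in the same direction were 2 higher in all 4 groups. With the score of Fos, Egr1 and Junb, those past it in the same direction were 2 higher in all 4 groups. Within cells with Y-linked transcripts, the genes past the fold numbered 2278 in experimental OHCs, 1373 in control IHCs and 3402 in experimental IHCs and those past it in the same direction were 4 higher in all 4 groups and 1 lower in all 4 groups. Within cells with Xist, the genes past the fold numbered 2866 in control OHCs, 1419 in experimental OHCs and 2344 in control IHCs and those past it in the same direction were 2 higher in all 4 groups and 2 lower in all 4 groups. Within cells low in Gm15772, the genes past the fold numbered 1502 in control OHCs, 2278 in experimental OHCs, 1531 in control IHCs and 3402 in experimental IHCs and those past it in the same direction were 7 higher in all 4 groups and 1 lower in all 4 groups. Within cells high in Gm15772, the genes past the fold numbered 1815 in control OHCs, 1289 in experimental OHCs and 1904 in control IHCs and those past it in the same direction were 1 lower in all 4 groups. Without cells carrying supporting cell transcripts, those past it in the same direction were 2 higher in all 4 groups. The median rank correlation between groups stayed between -0.016 and 0.012 in all 17 alternatives. In the experimental groups, the cells with Y-linked transcripts and those low in Gm15772 gave the same counts. The cause of these moves was not tested, apart from the fewer cells or genes that an alternative keeps by construction.

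Among values of single genes and lists under the alternatives, 41 changed sign from a ratio past 2-fold, also of genes below the 10 CPM filter. A further 1951 moved otherwise and 3063 did not move. Some alternatives kept few cells. Those with Y-linked transcripts were 3 high-score and 4 low-score experimental IHCs, and 11 and 5 experimental OHCs. Control IHCs with Xist were 4 high-score and 8 low-score cells. Between the top and bottom terciles of the score, the sign turned for Casp8ap2 in experimental IHCs (0.86) and Dusp8 in experimental IHCs (-0.13). With the score of Fos, Egr1 and Junb, the sign turned for Crat in control IHCs (0.25), Dusp8 in control IHCs (-0.29), Gabpa in experimental OHCs (-0.0528), Nr4a1 in experimental OHCs (-2.39), Qpct in control IHCs (-2.63), Rem2 in experimental OHCs (-1.22), Sertad1 in experimental IHCs (-0.91), Slc16a5 in experimental OHCs (-0.52) and Wdr91 in control OHCs (0.91). Within cells with Y-linked transcripts, the sign turned for Arhgef1 in experimental IHCs (-3.02), Atf3 in experimental OHCs (-0.31), Atf3 in experimental IHCs (-3.97), Nhlrc1 in experimental OHCs (7.61) and Zfp78 in experimental IHCs (0.50). Within cells with Xist, the sign turned for Ccn1 in experimental IHCs (-0.31), Dusp8 in control IHCs (-6.67), Nhlrc1 in control IHCs (1.68), Nr4a1 in control IHCs (-5.39) and the median of supporting cell genes in control IHCs (-0.96). Within cells low in Gm15772, the sign turned for Arhgef1 in experimental IHCs (-3.02), Atf3 in experimental OHCs (-0.31), Atf3 in experimental IHCs (-3.97), Nhlrc1 in experimental OHCs (7.61), Rem2 in control OHCs (-0.16) and Zfp78 in experimental IHCs (0.50). Within cells high in Gm15772, the sign turned for Casp8ap2 in control IHCs (0.15), Ccn1 in experimental IHCs (-0.31), Dusp8 in control IHCs (-0.99), Nhlrc1 in control IHCs (1.70), Nr4a1 in control IHCs (-4.66), the median of supporting cell genes in control OHCs (-0.43), the median of supporting cell genes in control IHCs (-1.83) and the median of glia genes in control IHCs (-0.68). Without cells carrying supporting cell transcripts, the sign turned for Otog in control OHCs (-0.46), Tectb in control OHCs (-2.34), Tectb in control IHCs (-1.94), Zfp36 in control OHCs (-7.29), the median of supporting cell genes in control OHCs (-0.53) and the median of supporting cell genes in control IHCs (-1.27).

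Leaving out the doubted cells and the cells carrying supporting cell transcripts were alternatives chosen after seeing the data. No paired analysis was possible because the results come from no test and each group is 1 sample. At this depth counting error is small beside the spread between cells.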
